A study of Homo sapiens with 20 samples.

Results

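The 50 genes described here drive chromosome segregation and cell division, and they were listed by their known function in mitosis and at the kinetochore. Of these, 49 were measured among the 18417 genes on the arrays. CENPA, the histone H3 variant of centromeres, was not measured, because its only transcript cluster (the set of probes that the array reports as one value) also carries the symbol SLC35F6. MDA-MB-231 is an established human breast cancer cell line of the basal, triple-negative type. The cells received 36 µM cisplatin (Cis), which crosslinks DNA, 10 µM TM (ammonium tetrathiomolybdate, a copper chelator) or both drugs (Cis/TM), and RNA taken after 12 h or 24 h was profiled on 20 arrays of the type Affymetrix Human Gene 1.0 ST. The control cells are called Control, and treated groups are named by drug and time (Cis 12 h, for example). TM 12 h had 2 arrays and the other 6 groups had 3 each. Labels of the control arrays carry no time although the methods describe a vehicle control at each time, so 1 set of 3 control arrays stands behind all 6 comparisons with Control. All arrays represent a single cell line, and the methods describe treatment in triplicate in 6-well plates, but no label ties an array to a well or to an independent culture. The p-values therefore measure only the spread between these arrays, which may be technical.

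In dividing cells, cyclin B and CDK1 drive entry into mitosis, the kinetochore attaches each chromosome to spindle microtubules, and the spindle checkpoint holds back the anaphase-promoting complex (APC/C) until every chromosome is attached. The APC/C then marks cyclin B and securin for destruction, which starts chromosome separation and mitotic exit. Most of these genes are transcribed mainly in the G2 and M phases, under the MuvB complex with MYBL2 and FOXM1, which reaches their promoters through an element called the cell cycle genes homology region (CHR), often alongside CCAAT boxes bound by NF-Y.

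Values are the deposited log2 values. A call, higher or lower, needed both an adjusted p under 0.05 by limma and more than a 1.5-fold change. Over the members, log2 differences had a median standard error of 0.123 in comparisons of 3 arrays with 3. Of 5 markers of this line, VIM ran from 11.06 to 11.33 and CD44 from 11.44 to 11.84 over the 20 arrays. MSN ran from 10.8 to 11.4, and none of these was called against Control. EGFR (7.1 to 8.79) fell in 3 of the 6 comparisons with Control and CAV1 (10.44 to 11.63) in 1. Of 11 markers of other cells, ESR1 ran from 3.81 to 4.23, PGR from 3.40 to 4.16, CDH1 from 3.47 to 4.08, PTPRC from 2.86 to 3.49 and CD3E from 3.38 to 3.93, and EPCAM ran from 7.65 to 8.98. ERBB2 (5.573 to 6.415) and GATA3 (5.129 to 6.435) lay between these, and PECAM1 ran from 4.218 to 4.827 and DCN from 3.035 to 3.615. EPCAM fell in 3 of the 6 comparisons with Control and ADIPOQ, which ran from 3.97 to 5.06, in 4, while the other 9 of these markers were not called in any. The table has no measure of background for a probe. Across all genes, log2 differences from Control were higher for genes of higher mean level (Spearman's rho from 0.232 to 0.496 over the 6 comparisons), and across the 49 members the reverse held (−0.305 to −0.401), where genes are not independent replicates. On the second principal component, Cis 12 h A (35.2) and TM 24 h A (19.1) stood away from the other arrays of their groups, which reached at most 8.24.

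Promoter sequences from RefSeq (GRCh38.p14) were matched for 41 of the 49 measured members. The 7 shown are examples that hold, or lack, the elements that accompany G2 and M phase transcription. Those shown with CHR all fell in Cis 12 h and those shown without it did not, which is not so for the members in general. Of the 20 matched members not called in Cis 12 h, 13 also held CHR, and CENPE, which fell most, held neither element. Each line gives the 140 bases before the transcription start, 5′ to 3′ on the strand of the gene, with matches on either strand in capitals. The motifs searched were CHR (TTTGAA or TTCGAA) and CCAAT, so that a match on the other strand reads TTCAAA or ATTGG, and the 2 motifs do not overlap each other in the promoters shown.
CCNB2: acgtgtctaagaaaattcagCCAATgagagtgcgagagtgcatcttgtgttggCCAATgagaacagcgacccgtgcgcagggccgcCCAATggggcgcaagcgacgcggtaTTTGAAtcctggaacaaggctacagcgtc
BUB1B: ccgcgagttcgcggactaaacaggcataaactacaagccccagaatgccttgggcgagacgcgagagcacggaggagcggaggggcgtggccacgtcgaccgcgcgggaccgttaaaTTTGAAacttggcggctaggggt
KIF4A: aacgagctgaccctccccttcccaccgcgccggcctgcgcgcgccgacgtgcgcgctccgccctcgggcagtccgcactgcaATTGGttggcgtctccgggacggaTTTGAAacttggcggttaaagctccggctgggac
KIF18A: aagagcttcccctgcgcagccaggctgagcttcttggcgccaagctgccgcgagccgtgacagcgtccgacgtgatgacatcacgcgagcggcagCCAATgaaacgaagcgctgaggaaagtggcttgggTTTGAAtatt
CCNB1: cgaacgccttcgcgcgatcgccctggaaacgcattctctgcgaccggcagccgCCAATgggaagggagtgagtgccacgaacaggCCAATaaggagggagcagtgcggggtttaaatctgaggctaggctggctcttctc
AURKB: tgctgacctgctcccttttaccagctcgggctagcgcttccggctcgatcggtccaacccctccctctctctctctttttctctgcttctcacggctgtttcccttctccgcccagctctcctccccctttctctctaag
UBE2S: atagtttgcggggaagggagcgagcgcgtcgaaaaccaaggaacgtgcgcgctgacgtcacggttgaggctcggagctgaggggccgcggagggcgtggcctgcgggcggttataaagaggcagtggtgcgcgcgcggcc
CCNB2 (chr15:59105006-59105145, plus strand), a B-type cyclin, held 1 CHR match that began 29 bases before the start, with CCAAT matches upstream of it. BUB1B (chr15:40160929-40161068, plus strand), a checkpoint kinase, held a CHR match 23 bases before the start, and the kinesins KIF4A (chrX:70289964-70290103, plus strand) and KIF18A (chr11:28108157-28108296, minus strand) each held 1 CHR and 1 CCAAT match. CCNB1 (chr5:69167010-69167149, plus strand), the other B-type cyclin, held 2 CCAAT matches and none of CHR. AURKB (chr17:8210226-8210365, minus strand) and UBE2S (chr19:55407789-55407928, minus strand) held no match in the bases shown, and 1 CCAAT match each farther upstream, 153 and 191 bases before the start. Over the whole window, from 250 bases before to 50 after the start, CHR was found in 30 of the 41 members (73.2%) and in 16.6% of 27305 promoters, CCAAT in 32 (78.0%) and in 35.7%, and both in 24 (58.5%) and in 6.58%. A match describes the letters only and does not show that a factor binds there.

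Many mitosis genes fell in Cis 12 h and Cis/TM 12 h, in a larger share than among all genes. In Cis 12 h, 22 of the 49 members fell and 2 rose, against 10.8% and 14.8% of all genes, and the median log2 difference was −0.51 for the members and −0.01 for all genes. In Cis/TM 12 h, 18 fell and 3 rose, against 8.55% and 15.2% of all genes, with a median of −0.34. All 18 were among the 22 of Cis 12 h, and the remaining 4 were CENPI, NDC80, TPX2 and ECT2, none of which differed by a call between Cis/TM 12 h and Cis 12 h. These comparisons share the control arrays. From bulk RNA, fewer cells in G2 or mitosis and less of these transcripts per cell cannot be told apart.

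At 24 h of cisplatin, alone or with TM, more members were called higher than lower, as was also so among all genes. In Cis 24 h, 8 members rose and 1 fell, against 11.5% and 4.90% of all genes (median 0.03), and in Cis/TM 24 h 6 rose and 2 fell, against 4.54% and 2.48% (median 0.07). TM alone gave 6 higher and 3 lower at 12 h (8.99% and 3.11% of all genes, median −0.09) and 4 higher and 3 lower at 24 h (5.16% and 2.55%, median −0.11). Across the 6 comparisons, 34 members were called at least once, UBE2S and AURKB rose in all 6, and no member rose in one and fell in another. The shares of all genes that did the same over the 6 comparisons were not counted, so these counts do not set the mitosis genes apart from other genes. The small counts moved with single arrays or with scaling. Without Control A, 4 members rose in Cis 12 h, without Control B 5 rose in Cis/TM 12 h, without TM 24 h B 5 fell in TM 24 h, and in Cis 24 h 2 fell without Control A and none without Control C. Cyclic loess normalization gave 5 higher and 3 lower in Cis 24 h and 4 and 3 in Cis/TM 24 h, and with TM it gave 4 and 4 at 12 h and 2 and 4 at 24 h. Centring each array on its median, which takes 0.15 off the differences of Cis 12 h and 0.11 off those of Cis/TM 12 h, gave 2 higher and 27 lower in the first and 2 and 21 in the second, and raised the shares of all genes called lower to 16.7% and 12.8%.

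**Figure D1:**
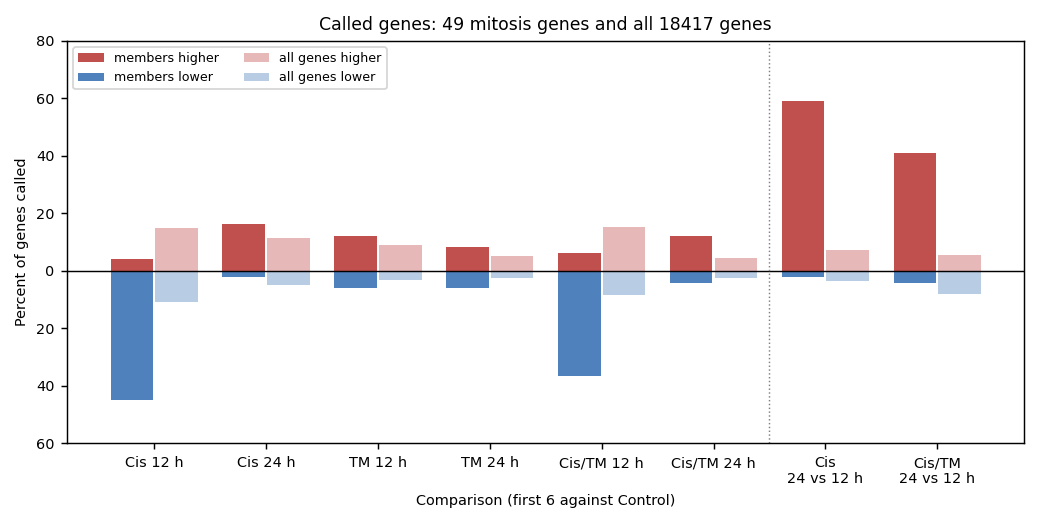
Percent of the 49 measured mitosis genes (dark bars) and of all 18417 genes (light bars) called higher (up from 0) or lower (down from 0) in 8 comparisons, the first 6 against Control and the last 2 between 24 h and 12 h. Members called lower stand out in Cis 12 h (22 of 49) and Cis/TM 12 h (18 of 49), and members called higher in the comparisons of 24 h with 12 h (29 and 20 of 49).

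**Figure D2:**
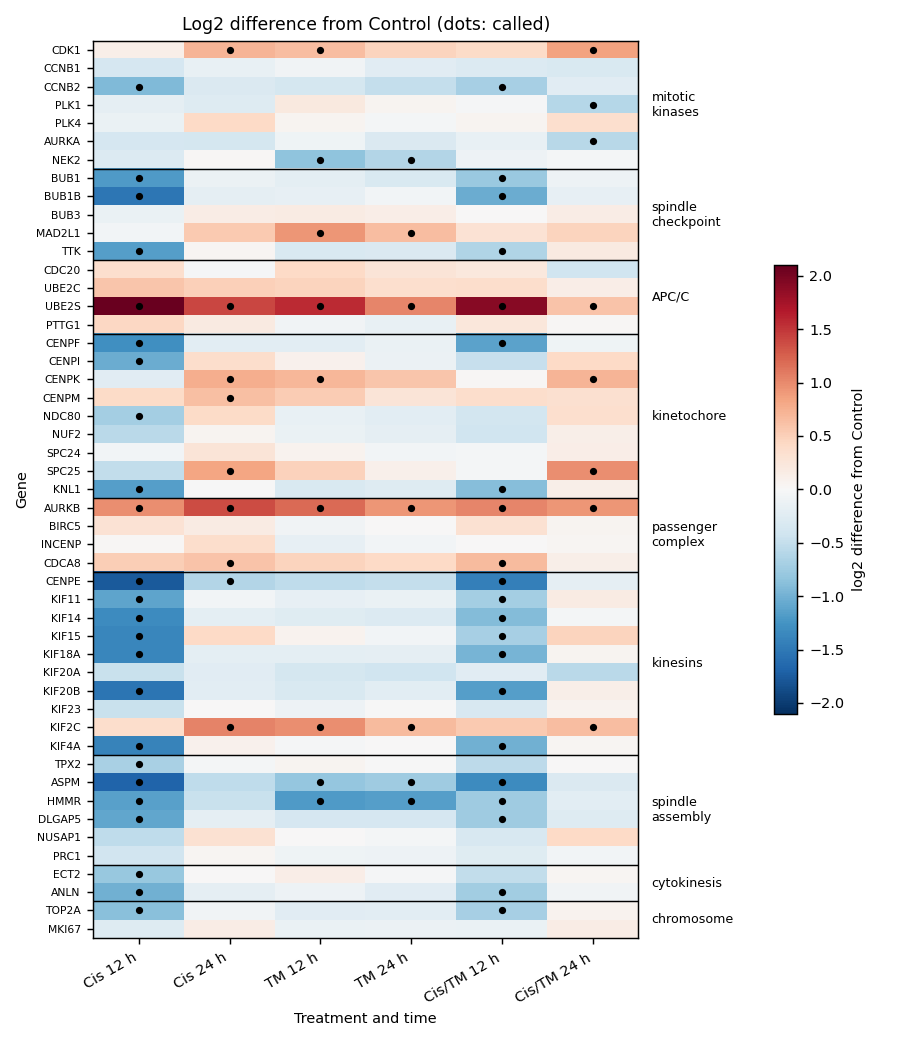
Log2 difference from Control of each measured member (vertical axis, grouped by role) in the 6 treatment groups (horizontal axis), in red where higher and in blue where lower, with a dot where the gene was called. Dots on blue in both Cis 12 h and Cis/TM 12 h include BUB1, BUB1B and TTK, CENPF and KNL1, and 7 of 10 kinesins, while UBE2S and AURKB are red in all 6 columns.

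CDK1, the kinase whose activity starts mitosis, rose in Cis 24 h, Cis/TM 24 h and TM 12 h, and its partner cyclin B1 (CCNB1) was not called in any comparison with Control. The log2 values of CDK1 were 8.66, 8.27 and 8.98 for Control, 8.55, 8.84 and 8.89 for Cis 12 h, 8.97, 9.08 and 9.06 for Cis/TM 12 h, and 9.35 and 9.21 for TM 12 h. At 24 h they were 9.40, 9.31 and 9.36 for Cis 24 h, 9.48, 9.47 and 9.49 for Cis/TM 24 h, and 9.02, 9.35 and 8.94 for TM 24 h. Control B was the lowest of all 20 arrays, and every array of Cis 24 h and Cis/TM 24 h lay above the 3 control arrays. The log2 difference was 0.72 (SE 0.14, adjusted p = 6e-04) in Cis 24 h and 0.84 (SE 0.14, adjusted p = 0.00044) in Cis/TM 24 h, and TM 12 h gave 0.64, while 0.46 in TM 24 h was not called. Without Control B, those of Cis 24 h and TM 12 h were 0.54 and 0.46 and no longer passed the fold threshold. Without TM 12 h A the difference of TM 12 h was 0.57. The difference of Cis 24 h was also under that threshold after cyclic loess normalization (0.54). That of TM 12 h was under it after centring, quantile or cyclic loess normalization (0.58, 0.47 and 0.47). CCNB1 read 10.29, 10.20 and 10.28 for Control, 9.78, 9.99 and 9.94 for Cis 12 h, 10.03, 9.90 and 9.99 for Cis/TM 12 h, and 10.20 and 10.16 for TM 12 h. Its 24 h values were 10.20, 10.04 and 10.07 for Cis 24 h, 9.95, 9.88 and 10.01 for Cis/TM 24 h, and 9.89, 10.12 and 10.05 for TM 24 h. In 5 of 6 treated groups its arrays lay below every control array, by log2 differences from −0.35 (SE 0.09, adjusted p = 0.0033) (Cis 12 h) to −0.15 (SE 0.09, adjusted p = 0.2) (Cis 24 h), none of which reached the fold threshold. CCNB2 fell in Cis 12 h (−0.93 (SE 0.12, adjusted p = 3.7e-06)) and in Cis/TM 12 h (−0.70 (SE 0.12, adjusted p = 9.9e-05)).

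Among the other mitotic kinases, NEK2, a centrosome kinase, fell with TM alone, and PLK1 and AURKA, which act in centrosome maturation and spindle assembly, fell in Cis/TM 24 h. NEK2 read 8.85, 8.81 and 8.89 for Control, 8.40, 8.74 and 8.56 for Cis 12 h, 8.71, 8.71 and 8.79 for Cis/TM 12 h, and 7.98 and 8.04 for TM 12 h. At 24 h it read 8.94, 8.82 and 8.86 for Cis 24 h, 8.89, 8.79 and 8.72 for Cis/TM 24 h, and 8.17, 8.19 and 8.36 for TM 24 h. The arrays of TM 12 h and TM 24 h were the 5 lowest of the 20, with differences of −0.84 (SE 0.11, adjusted p = 2.1e-05) and −0.61 (SE 0.10, adjusted p = 0.00021), the second being −0.57 and under the fold threshold without TM 24 h A. PLK1 read 8.35, 8.55 and 7.71 for Control, 7.92, 8.14 and 7.97 for Cis 12 h, 8.26, 8.06 and 8.21 for Cis/TM 12 h, and 8.40 and 8.42 for TM 12 h. Its values at 24 h were 7.95, 7.97 and 7.87 for Cis 24 h, 7.83, 7.50 and 7.50 for Cis/TM 24 h, and 8.11, 8.22 and 8.47 for TM 24 h. Control C lay well below the other 2 control arrays and within the range of Cis/TM 24 h, and the difference of −0.59 (SE 0.16, adjusted p = 0.013) was not called when Control A, Control B, Cis/TM 24 h B or Cis/TM 24 h C was left out (−0.52, −0.42, −0.54 and −0.54). For AURKA the values were 9.79, 9.59 and 9.50 for Control, 9.07, 9.40 and 9.35 for Cis 12 h, 9.43, 9.52 and 9.45 for Cis/TM 12 h, and 9.59 and 9.47 for TM 12 h. Those at 24 h were 9.23, 9.26 and 9.27 for Cis 24 h, 8.99, 9.03 and 9.11 for Cis/TM 24 h, and 9.21, 9.43 and 9.35 for TM 24 h. The arrays of Cis/TM 24 h lay below every control array and, except for Cis 12 h A (9.07), below all others, with a difference of −0.59 (SE 0.10, adjusted p = 0.00058), which fell short of the fold threshold without Control A, Cis/TM 24 h A or Cis/TM 24 h B (−0.50, −0.56 and −0.58). PLK4, the kinase of centriole duplication, was not called against Control.

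Of the 5 spindle checkpoint genes, the kinases BUB1, BUB1B and TTK fell in Cis 12 h and in Cis/TM 12 h, and none fell at 24 h. BUB1B, which with MAD2L1 restrains the APC/C, read 9.70, 9.82 and 9.98 for Control, 8.09, 8.54 and 8.34 for Cis 12 h, 8.78, 8.85 and 8.72 for Cis/TM 12 h, and 9.74 and 9.58 for TM 12 h. At 24 h its values were 9.78, 9.59 and 9.59 for Cis 24 h, 9.73, 9.69 and 9.59 for Cis/TM 24 h, and 9.73, 9.77 and 9.81 for TM 24 h. The 6 arrays of Cis 12 h and Cis/TM 12 h lay below all 14 others, and the log2 differences were −1.51 (SE 0.11, adjusted p = 2.1e-09) and −1.05 (SE 0.11, adjusted p = 2.5e-07). BUB1 fell by 1.18 and TTK, which recruits checkpoint proteins to unattached kinetochores, by 1.15 on the log2 scale in Cis 12 h. MAD2L1 instead rose with TM, by 0.92 at 12 h and 0.64 at 24 h, the second short of the fold threshold without Control B (0.44) or TM 24 h B (0.54). The second also fell short of it after centring, quantile or cyclic loess normalization (0.57, 0.51 and 0.53). BUB3, which binds BUB1 and BUB1B, was not called, with differences from −0.14 to 0.17.

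The cluster listed for UBE2S, the E2 enzyme that extends ubiquitin chains on APC/C substrates, had the largest rise of any member in 5 of the 6 comparisons with Control. The number of the cluster used lies between those of AURKB and TOP2A, both on chromosome 17, while UBE2S is on chromosome 19. SPC24, also on chromosome 19, has a cluster number above those of all members on chromosome 17. The UBE2S values may therefore come from another locus, and whether the probes of this cluster lie in the gene itself was not checked. UBE2S read 6.19, 6.88 and 6.63 for Control, 8.74, 8.81 and 8.39 for Cis 12 h, 8.69, 8.35 and 8.42 for Cis/TM 12 h, and 8.16 and 8.09 for TM 12 h. At 24 h the values were 8.29, 7.91 and 7.73 for Cis 24 h, 7.38, 7.12 and 6.98 for Cis/TM 24 h, and 7.48, 7.59 and 7.73 for TM 24 h. No treated array overlapped the control arrays, and the Cis/TM 24 h arrays lay nearest to them. The differences ran from 2.08 (SE 0.17, adjusted p = 9.4e-09) in Cis 12 h to 0.59 (SE 0.17, adjusted p = 0.02) in Cis/TM 24 h. The last was not called without Control A (0.41) or Cis/TM 24 h A (0.48), with the mean of the 2 clusters of the gene (0.45), or after centring, quantile or cyclic loess normalization (0.57, 0.46 and 0.45). The other 3 genes of this role were not called against Control. CDC20, which activates the APC/C once the checkpoint is satisfied, read 6.79, 7.27 and 6.87 for Control, 7.37, 7.35 and 7.29 for Cis 12 h, 7.30, 7.20 and 7.12 for Cis/TM 12 h, and 7.51 and 7.29 for TM 12 h. Its 24 h values were 6.88, 7.09 and 6.90 for Cis 24 h, 6.72, 6.45 and 6.51 for Cis/TM 24 h, and 7.38, 7.29 and 7.07 for TM 24 h. The Cis/TM 24 h arrays lay below all control arrays, with a difference of −0.41 (SE 0.12, adjusted p = 0.024). UBE2C, the E2 that starts these chains, differed by 0.14 (Cis/TM 24 h) to 0.58 (Cis 12 h), and PTTG1, or securin, by −0.15 to 0.43.

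Of the 9 measured kinetochore genes, CENPF, CENPI, NDC80 and KNL1 fell in Cis 12 h, and CENPK, CENPM and SPC25 rose in Cis 24 h. CENPF, a large protein of the outer kinetochore, fell by 1.28 and KNL1, the scaffold of the checkpoint proteins, by 1.15, and both fell in Cis/TM 12 h too (by 1.12 and 0.90). Calls differed among the 4 subunits of the NDC80 complex, which grips the microtubule. NDC80 fell in Cis 12 h by 0.71, NUF2 and SPC24 were not called against Control (−0.56 and −0.05 in Cis 12 h), and SPC25 rose at 24 h. SPC25 read 7.79, 7.34 and 7.93 for Control, 6.73, 7.32 and 7.48 for Cis 12 h, 7.55, 7.73 and 7.66 for Cis/TM 12 h, and 8.13 and 8.22 for TM 12 h. At 24 h its values were 8.60, 8.46 and 8.47 for Cis 24 h, 8.51, 8.80 and 8.71 for Cis/TM 24 h, and 7.48, 7.98 and 7.93 for TM 24 h. All arrays of Cis 24 h and Cis/TM 24 h lay above the other 14, with differences of 0.82 (SE 0.17, adjusted p = 0.0011) and 0.98 (SE 0.17, adjusted p = 0.00066). CENPK, of the inner kinetochore, rose in Cis 24 h (0.77), Cis/TM 24 h (0.71) and TM 12 h (0.70, or 0.58 and under the fold threshold without Control A). After quantile or cyclic loess normalization, the rise of CENPK in TM 12 h was also under that threshold (0.529 and 0.525). The rise of CENPM (0.64) was lost without Control C (0.34) or Cis 24 h A (0.57), and after centring, quantile or cyclic loess normalization (0.55, 0.38 and 0.38).

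AURKB, the kinase of the chromosomal passenger complex that releases faulty attachments, rose in every treated group. It read 7.42, 7.84 and 7.52 for Control, 8.60, 8.65 and 8.47 for Cis 12 h, 8.72, 8.58 and 8.57 for Cis/TM 12 h, and 8.79 and 8.79 for TM 12 h. At 24 h the values were 9.04, 9.00 and 8.85 for Cis 24 h, 8.70, 8.50 and 8.35 for Cis/TM 24 h, and 8.54, 8.42 and 8.59 for TM 24 h. The highest control array, 7.84, was below the lowest treated array, 8.35, and the differences ran from 0.92 (SE 0.12, adjusted p = 2e-05) in Cis/TM 24 h to 1.37 (SE 0.12, adjusted p = 5e-08) in Cis 24 h. Its 3 measured partners had 2 calls in all, both for CDCA8. BIRC5 (survivin) read 8.85, 8.87 and 9.17 for Control, 9.22, 9.33 and 9.24 for Cis 12 h, 9.37, 9.18 and 9.29 for Cis/TM 12 h, and 8.92 and 8.88 for TM 12 h. At 24 h it read 9.18, 9.25 and 9.00 for Cis 24 h, 9.17, 8.95 and 8.95 for Cis/TM 24 h, and 8.94, 8.99 and 9.00 for TM 24 h. The control arrays overlapped those of 4 of the 6 treated groups, and no difference passed (largest 0.31 (SE 0.10, adjusted p = 0.019), in Cis/TM 12 h). INCENP, the scaffold, differed by −0.17 to 0.36 without a call. CDCA8 (borealin) rose in Cis 24 h (0.59) and Cis/TM 12 h (0.66), but not without Control C (0.51 and 0.57), nor, in Cis 24 h, without Control B or Cis 24 h A (0.54 and 0.52).

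Of the 10 kinesins, 7 fell in Cis 12 h, and the same 7 fell in Cis/TM 12 h. CENPE, the motor that carries chromosomes to the spindle equator, fell most of all members. It read 9.33, 9.10 and 9.49 for Control, 7.23, 7.59 and 7.79 for Cis 12 h, 7.74, 7.96 and 7.94 for Cis/TM 12 h, and 8.76 and 8.77 for TM 12 h. At 24 h its values were 8.66, 8.64 and 8.77 for Cis 24 h, 8.91, 9.17 and 9.27 for Cis/TM 24 h, and 8.60, 9.00 and 8.83 for TM 24 h. The differences were −1.77 (SE 0.14, adjusted p = 7.2e-09) in Cis 12 h and −1.43 (SE 0.14, adjusted p = 1.3e-07) in Cis/TM 12 h, and CENPE was the only member that was still lower in Cis 24 h (−0.62 (SE 0.14, adjusted p = 0.0022), or −0.53 and under the fold threshold without Control C). KIF20B, a motor of cytokinesis, read 9.71, 9.72 and 9.89 for Control, 7.93, 8.43 and 8.37 for Cis 12 h, 8.55, 8.59 and 8.73 for Cis/TM 12 h, and 9.52 and 9.38 for TM 12 h. Its 24 h values were 9.57, 9.52 and 9.56 for Cis 24 h, 9.87, 9.80 and 9.999 for Cis/TM 24 h, and 9.30, 9.74 and 9.58 for TM 24 h. The 6 arrays with cisplatin at 12 h were the 6 lowest, and the differences were −1.53 (SE 0.13, adjusted p = 1.1e-08) and −1.15 (SE 0.13, adjusted p = 4.9e-07).

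KIF15, a motor that helps hold the bipolar spindle, and KIF4A, a chromosome-bound motor, followed the same course. KIF15 read 8.29, 8.25 and 8.45 for Control, 6.35, 7.29 and 7.22 for Cis 12 h, 7.68, 7.48 and 7.73 for Cis/TM 12 h, and 8.47 and 8.35 for TM 12 h. At 24 h it read 8.81, 8.72 and 8.68 for Cis 24 h, 8.83, 8.85 and 8.69 for Cis/TM 24 h, and 8.05, 8.39 and 8.39 for TM 24 h. Cis 12 h A was the lowest array by far, the Cis/TM 12 h arrays were next above the other 2 of Cis 12 h, and the 6 arrays with cisplatin at 24 h lay above every control array without a call. For KIF4A the values were 9.53, 9.73 and 9.47 for Control, 7.79, 8.46 and 8.26 for Cis 12 h, 8.66, 8.32 and 8.70 for Cis/TM 12 h, and 9.56 and 9.56 for TM 12 h. At 24 h they were 9.71, 9.65 and 9.62 for Cis 24 h, 9.79, 9.59 and 9.49 for Cis/TM 24 h, and 9.53, 9.53 and 9.68 for TM 24 h. No array of Cis 12 h or Cis/TM 12 h reached the others, whose values all lay between 9.47 and 9.79. The differences in Cis 12 h were −1.37 (SE 0.17, adjusted p = 2.1e-06) for KIF15 and −1.41 (SE 0.14, adjusted p = 1e-07) for KIF4A. KIF11, the target of monastrol, KIF14 and KIF18A fell by 1.11, 1.32 and 1.36. KIF2C, the microtubule depolymerase that corrects attachments, went the other way and rose in 4 of 6 comparisons, by 1.05 with cisplatin and 0.65 with both drugs for 24 h, and with TM by 0.97 at 12 h and 0.67 at 24 h. After quantile or cyclic loess normalization, its rise was under the fold threshold in TM 24 h (0.52 and 0.54) and Cis/TM 24 h (0.50 and 0.51). KIF20A and KIF23, motors of the central spindle, were not called against Control.

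Among 6 spindle assembly genes, ASPM and HMMR fell with cisplatin, alone or with TM, at 12 h and with TM alone at both times, and neither was called in Cis 24 h (−0.53 and −0.46) or Cis/TM 24 h (−0.30 and −0.22). ASPM, a protein of the spindle poles, read 9.58, 9.59 and 9.76 for Control, 7.37, 8.27 and 8.25 for Cis 12 h, 8.26, 8.44 and 8.29 for Cis/TM 12 h, and 8.85 and 8.81 for TM 12 h. At 24 h its values were 9.16, 9.06 and 9.12 for Cis 24 h, 9.32, 9.37 and 9.35 for Cis/TM 24 h, and 8.69, 8.93 and 9.05 for TM 24 h. Every treated array lay below the control arrays, Cis 12 h A lowest, and the differences were −1.68 (SE 0.17, adjusted p = 8.9e-08) in Cis 12 h and −1.31 (SE 0.17, adjusted p = 2.5e-06) in Cis/TM 12 h, and with TM they were −0.81 at 12 h and −0.75 (SE 0.17, adjusted p = 0.0034) at 24 h. HMMR, which binds spindle microtubules, read 7.88, 8.31 and 8.26 for Control, 6.52, 7.30 and 7.21 for Cis 12 h, 7.41, 7.44 and 7.35 for Cis/TM 12 h, and 7.03 and 6.90 for TM 12 h. Its 24 h values were 7.78, 7.61 and 7.68 for Cis 24 h, 7.99, 7.92 and 7.88 for Cis/TM 24 h, and 6.69, 7.18 and 7.09 for TM 24 h. It was the largest fall in both TM groups, with −1.19 (SE 0.18, adjusted p = 0.00013) at 12 h and −1.16 (SE 0.17, adjusted p = 8.2e-05) at 24 h, and it fell by 1.14 in Cis 12 h and by 0.75 in Cis/TM 12 h. DLGAP5 fell by 1.10 and TPX2, the activator of AURKA, by 0.67 in Cis 12 h. NUSAP1 and PRC1, which bundle microtubules, were not called against Control.

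**Figure D3:**
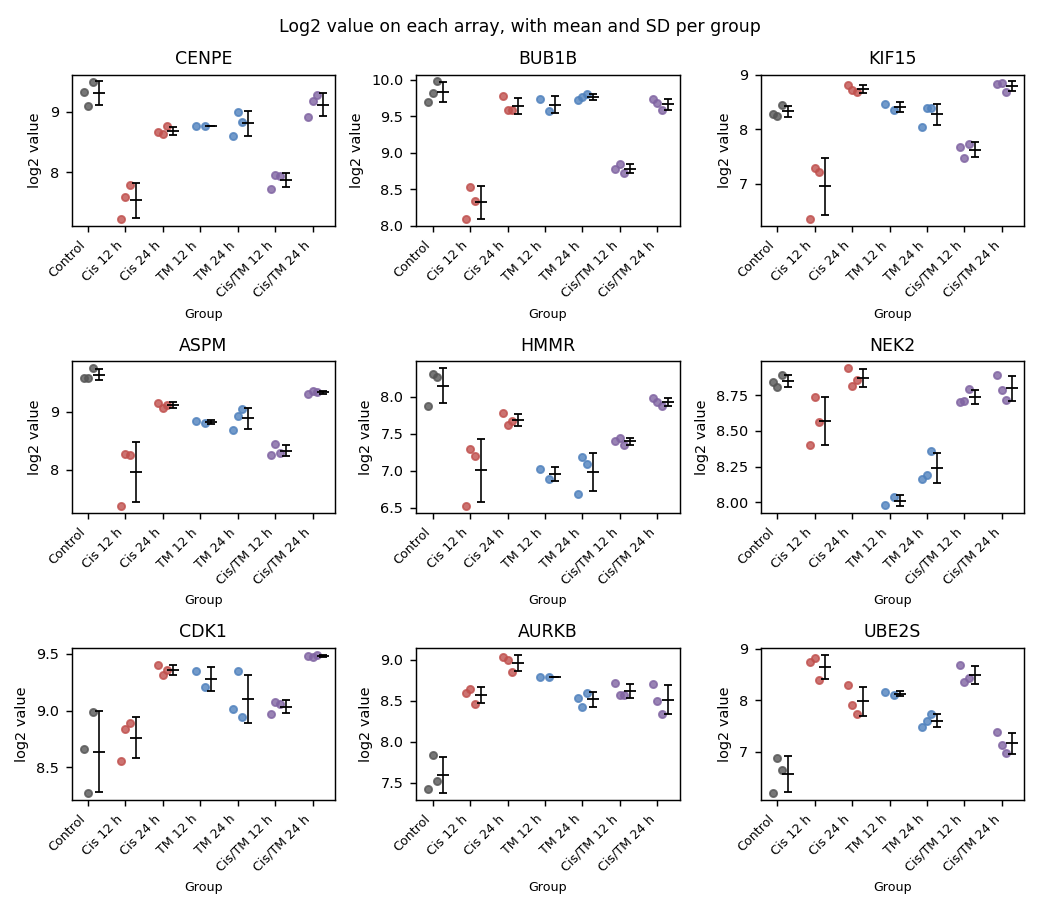
Log2 value on every array (points) of 9 members in the 7 groups (horizontal axis), with the mean and SD of each group to the right of its points. CENPE, BUB1B and KIF15 are low in Cis 12 h and Cis/TM 12 h, HMMR and NEK2 are low in the TM groups, and AURKB and UBE2S lie above Control in every treated group.

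Of the genes of cytokinesis, ECT2, which activates RhoA at the cleavage furrow, fell in Cis 12 h (−0.79), and ANLN, a scaffold of the contractile ring, fell in Cis 12 h (−1.02) and in Cis/TM 12 h (−0.74). TOP2A, the topoisomerase that untangles sister chromatids, read 11.31, 11.19 and 11.43 for Control, 10.26, 10.52 and 10.52 for Cis 12 h, 10.56, 10.61 and 10.63 for Cis/TM 12 h, and 11.10 and 11.03 for TM 12 h. At 24 h it read 11.15, 11.23 and 11.29 for Cis 24 h, 11.31, 11.40 and 11.43 for Cis/TM 24 h, and 11.02, 11.15 and 11.09 for TM 24 h. The arrays with cisplatin at 12 h lay below all others, with differences of −0.87 (SE 0.09, adjusted p = 2.7e-07) in Cis 12 h and −0.70 (SE 0.09, adjusted p = 4.7e-06) in Cis/TM 12 h. MKI67, the proliferation marker that coats mitotic chromosomes, read 9.96, 10.01 and 9.96 for Control, 9.58, 9.82 and 9.71 for Cis 12 h, 9.88, 9.79 and 9.85 for Cis/TM 12 h, and 9.90 and 9.77 for TM 12 h. Its 24 h values were 10.18, 10.10 and 10.11 for Cis 24 h, 10.19, 10.08 and 10.12 for Cis/TM 24 h, and 9.76, 9.84 and 9.97 for TM 24 h. Its differences from Control kept within −0.28 (SE 0.09, adjusted p = 0.015) (Cis 12 h) and 0.15 (SE 0.09, adjusted p = 0.24) (Cis/TM 24 h), and none was called, although the arrays did not overlap Control in 5 of 6 groups.

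Between 12 h and 24 h of cisplatin, 29 members rose and UBE2S fell, against 7.21% and 3.42% of all genes. The largest rise was that of KIF15 (1.78 (SE 0.17, adjusted p = 6.2e-07)), followed by KIF4A (1.49) and CENPI (1.42). All 22 members that had fallen in Cis 12 h were among the 29, a comparison that shares the Cis 12 h arrays with the one that chose them. The other 7 were CDK1, MAD2L1, CENPK, NUF2, SPC25, KIF2C and NUSAP1. The array Cis 12 h A had the lowest mean over members (8.40, against 8.71 and 8.68 for B and C), and without it 23 members rose, while CDK1 (0.49), CCNB2 (0.48), MAD2L1 (0.56), NUF2 (0.57), KIF2C (0.56) and HMMR (0.44) were under the fold threshold. So were CDK1 and MAD2L1 without Cis 24 h A (0.57 each) and CCNB2 without Cis 24 h C (0.57). Quantile and cyclic loess normalization also put CDK1 (0.482 and 0.475), CCNB2 (0.517 and 0.485) and MAD2L1 (0.526 and 0.533) under it. The same held for NUF2 (0.513 and 0.492) and TPX2 (0.544 and 0.503). UBE2S fell by 0.67, and was not called without Cis 24 h C (−0.55). With both drugs, 20 members rose and 2 fell between the times, against 5.67% and 8.07% of all genes. KIF20B rose most (1.27 (SE 0.13, adjusted p = 6.8e-07)) and UBE2S fell most (−1.32 (SE 0.17, adjusted p = 9.8e-06)), and the fall of CDC20 (−0.64) was under the fold threshold after centring, quantile or cyclic loess normalization (−0.56, −0.50 and −0.50). Without Cis/TM 12 h B or Cis/TM 24 h A, 4 members fell. Of the 18 that had fallen in Cis/TM 12 h, 15 were among the 20, again with the Cis/TM 12 h arrays in both comparisons, and none was called lower in Cis/TM 24 h. With TM alone, limma called 0 members in either direction between the times, against 0% higher and 0.00543% lower of all genes, and at an unadjusted p under 0.05 1 member was higher and 2 were lower, 6.12% of the members against 5.80% of all genes.

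**Figure D4:**
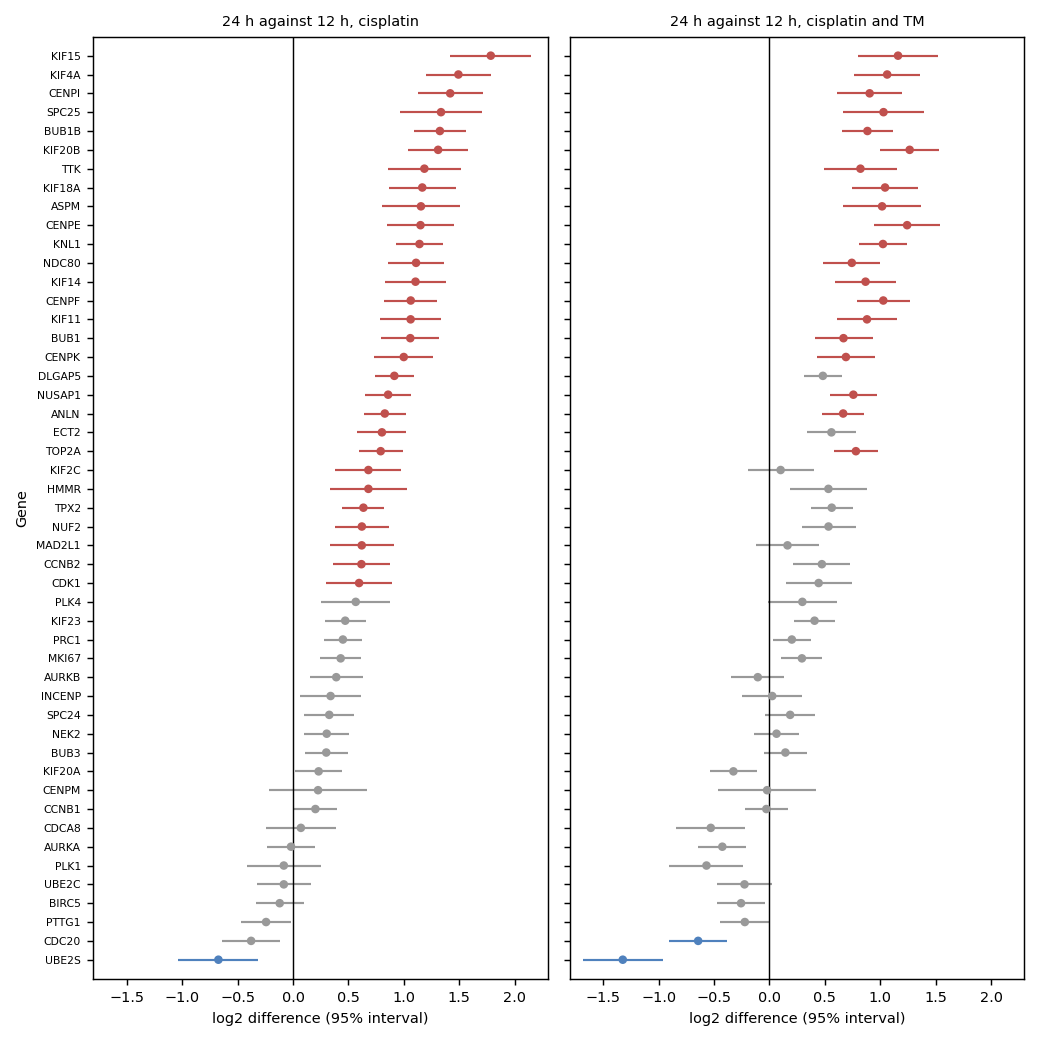
Log2 difference between 24 h and 12 h (horizontal axis, point with 95% interval) of each member (vertical axis, in 1 order for both panels) with cisplatin (left) and with cisplatin and TM (right), in red where called higher, blue where called lower and grey where not called. KIF15 leads on the left at 1.78, and UBE2S is lowest in both panels, at −0.67 and −1.32.

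Whether TM changed the response to cisplatin was asked by comparing the groups directly. At 12 h, limma called 0 members between Cis/TM and Cis in either direction, against 0% and 0% of all genes, and the smallest adjusted p of a member was 0.29. An unadjusted p under 0.05 was met by 21 members with higher and 0 with lower values in the combination. Among all genes, 9.40% met it in either direction. Whatever their p, 43 of the 49 differences were above 0 and 6 below (median 0.20), against 9756 of all 18417 genes below 0. Without Cis 12 h A, 8 members were higher at that p, against 3.13% of all genes, 42 of 49 differences were above 0 and the median was 0.10. At 24 h, 0 members rose and 1 fell, against 0.456% and 1.05% of all genes. This was UBE2S (−0.81 (SE 0.17, adjusted p = 0.015)), whose adjusted p passed 0.05 without Cis 24 h A or B or without Cis/TM 24 h B or C, with differences of −0.66, −0.85, −0.79 and −0.72. At an unadjusted p under 0.05, 2 members were higher and 8 lower, 20.4% of the members against 17.5% of all genes.

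The combination was also compared with TM alone. In Cis/TM 12 h, 13 members were lower and 1 higher than in TM 12 h, against 6.98% and 6.61% of all genes, with KIF4A lowest (−0.99 (SE 0.16, adjusted p = 8.7e-05)) and NEK2 higher (0.73 (SE 0.11, adjusted p = 4.1e-05)). The 13 were 6 kinesins (CENPE, KIF14, KIF15, KIF18A, KIF20B and KIF4A), BUB1B, MAD2L1, CENPF, CENPK, TPX2, ECT2 and ANLN. TPX2 was under the fold threshold after quantile or cyclic loess normalization (−0.572 and −0.545), and ANLN after cyclic loess normalization (−0.553). Without TM 12 h A, 10 were lower, since KIF14 (−0.57), KIF15 (−0.72) and TPX2 (−0.53) were not called, and neither MAD2L1 without TM 12 h B (−0.59) nor TPX2 without Cis/TM 12 h B (−0.58) passed. At 24 h, 2 were higher, HMMR (0.94 (SE 0.17, adjusted p = 0.00058)) and SPC25 (0.88), and 2 lower, CDC20 (−0.68 (SE 0.12, adjusted p = 0.00083)) and PLK1 (−0.66), against 3.53% and 2.75% of all genes. Without TM 24 h B, without TM 24 h C or with each array centred on its median, 5 members were higher, and without Cis/TM 24 h B 4 were. Without TM 24 h C, PLK1 (−0.55) was not called, which left 1 lower.

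The interaction of the drugs, the difference of Cis/TM from Control minus the sum of those of each drug alone, was called positive for 12 members and negative for 4 at 12 h, against 3.43% and 6.87% of all genes. Called or not, 34 of the 49 values were above 0 and 15 below, against 8814 of all 18417 genes below 0. HMMR had the largest positive value (1.58 (SE 0.25, adjusted p = 0.00053)), since each drug alone lowered it by over 1 on the log2 scale and both together by 0.75. ASPM (1.18), NEK2 (1.01) and CENPE (0.88) came next. UBE2S had the lowest value (−1.72 (SE 0.26, adjusted p = 0.00037)), and AURKB (−1.14), KIF2C (−0.79) and UBE2C (−0.68) were the other 3. After centring or quantile normalization, KIF2C (−0.687 and −0.565) and UBE2C (−0.582 and −0.588) were not called. The count called positive was 6 without Cis 12 h A, 5 without TM 12 h A or TM 12 h B, and 7 without Cis/TM 12 h C, and the count called negative was 2 without TM 12 h B. CENPE was not called without TM 12 h A (0.87), nor was UBE2C without Control B (−0.54) or TM 12 h B (−0.60), nor KIF2C without Cis 12 h B (−0.65), TM 12 h A (−0.73), TM 12 h B (−0.84) or Cis/TM 12 h B (−0.61).

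At 24 h, 3 interactions were called positive and 8 negative, 6.12% and 16.3% of the members against 5.08% and 11.4% of all genes. Of the 49 values, 31 were above 0 and 18 below, against 9143 of all 18417 genes below 0. HMMR (1.40 (SE 0.23, adjusted p = 0.00029)), ASPM (0.98) and CENPE (0.93) were the 3 called positive, and UBE2S was lowest (−1.85 (SE 0.24, adjusted p = 3.9e-05)), followed by AURKB (−1.37) and KIF2C (−1.07). The split depended on scaling. It was 7 positive and 4 negative with each array centred, 6 and 4 after quantile normalization, and 8 and 4 after cyclic loess normalization, and at 12 h these gave 14 and 2, 17 and 2, and 17 and 4. Without Control A or Control B, 5 were called positive at 24 h, and without TM 24 h B 6 were. The interaction is counted on 3 control arrays that enter every term.

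**Figure D5:**
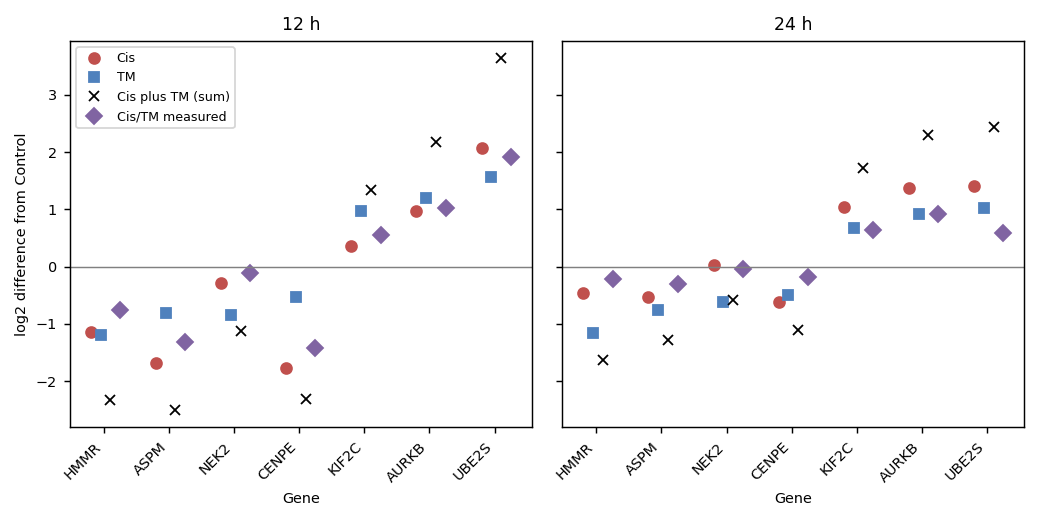
Log2 difference from Control (vertical axis) of 7 members with cisplatin, with TM, as the sum of these, and as measured with both drugs, at 12 h (left) and 24 h (right). For HMMR and ASPM the measured value lies above the sum, and for AURKB, KIF2C and UBE2S below it, at both times.

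Returning to all the matched promoters, CHR was found in 17 of the 19 matched members that fell in Cis 12 h (89.5%), in neither of the 2 that rose (UBE2S and AURKB), and in 13 of the 20 that were not called (65.0%). CCAAT was found in 13 of the 19 (68.4%), in both that rose, and in 17 of the 20 (85.0%). CCNB2 and CCNB1 differ in these matches. The first held a searched form of CHR (TTTGAA or TTCGAA) and fell in Cis 12 h. The second held none and was not called. CENPE, the deepest fall, held neither motif in its window, and PLK1, not called at 12 h, held both. These shares describe the letters of 1 window per gene and carry no test. Other forms of CHR, and other starts of a gene, were not searched. Whether the UBE2S values come from the gene behind the promoter shown was not checked.

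Of 79 other measured genes of mitosis, listed by function, cisplatin lowered 15 and raised 13 at 12 h (19% and 16.5%, against 10.8% and 14.8% of all genes), and lowered 1 and raised 23 at 24 h (1.27% and 29.1%, against 4.90% and 11.5%), with medians of −0.03 and 0.35 (−0.01 and −0.03 for all genes). In Cis/TM 10 were lower and 17 higher at 12 h (12.7% and 21.5%, against 8.55% and 15.2% of all genes), and 0 and 11 at 24 h (0% and 13.9%, against 2.48% and 4.54%). In TM the counts were 4 and 15 at 12 h (5.06% and 19%, against 3.11% and 8.99%) and 2 and 9 at 24 h (2.53% and 11.4%, against 2.55% and 5.16%). Of those raised in all 6 comparisons, DSN1, of the MIS12 complex, and CENPT, of the inner kinetochore, had the largest mean difference (1.48 and 1.49 in Cis 12 h). DEPDC1 and CDKN3, a phosphatase of CDKs, fell in 4 of 6 (−0.93 and −0.85 in Cis 12 h), and SGO2, which protects centromeric cohesion, in 3 (−1.12).

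Of 18 regulators of G2 and M phase transcription, cisplatin raised 5 and lowered 4 at 12 h, and raised 5 and lowered 1 at 24 h, or 27.8%, 22.2%, 27.8% and 5.56% of them, against the shares of all genes given above (14.8% and 10.8% at 12 h, 11.5% and 4.90% at 24 h). In TM the counts were 4 and 0 at 12 h (all genes 8.99% and 3.11%) and 3 and 1 at 24 h (5.16% and 2.55%), and in Cis/TM 6 and 1 at 12 h (15.2% and 8.55%) and 4 and 1 at 24 h (4.54% and 2.48%). MYBL2, which activates CHR promoters with MuvB, rose in all 6 comparisons, at 12 h by 1.31 with cisplatin, 1.67 with TM and 1.45 with both. Of 2 regulators picked after their values were seen, LIN9, a MuvB subunit, fell in Cis 12 h (−0.81), and FOXM1 differed there by 0.18 without a call and rose in Cis 24 h (0.70). The other MuvB subunits listed did not move together in Cis 12 h. LIN37 rose (1.26), LIN54 fell (−0.66), and LIN52 and RBBP4 were not called. The part of these regulators in the fall of the mitosis genes was not tested.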

How the data were processed

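The series holds 20 arrays (Affymetrix Human Gene 1.0 ST) of RNA from MDA-MB-231 cells, in 7 groups taken from the sample labels. The authors summarized the probes with RMA (version not given in the sources used here), and their deposited log2 values were used as they stand, so no depth or background per probe is known. RMA compresses small differences at low signal. Of 33297 transcript clusters, 19460 carried 1 gene symbol, and each of 18417 genes was represented by its cluster with the highest mean. UBE2S and BIRC5 have 2 clusters each, and where the probes of a cluster lie in the genome was not checked. One limma model (version 3.58.1, R 4.3.3) with 7 groups and 13 residual degrees of freedom was fitted to all genes, with eBayes and Benjamini-Hochberg adjustment within each of 15 comparisons. Calls needed an adjusted p below 0.05 together with more than a 1.5-fold change. The number of arrays limits the precision.

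The members and the lists of other genes were chosen with earlier results of these data known, by function. Values on every array are given for 10 members (CCNB1, CDK1, PLK1, AURKA, AURKB, CDC20, BUB1B, MKI67, TOP2A and BIRC5), for the 2 largest rises and falls in each comparison with Control, for members called one way in 5 or 6 of these, and for the largest rise and fall in the other comparisons. Of the other pathway genes, the 3 called most often in each direction are named, with FOXM1 and the MuvB subunits added after their values were seen. Of 81 other mitosis genes listed, 79 were measured, and all 18 regulators were. Alternatives were another scaling, other cluster and filter rules, no fold minimum, a fit to the compared groups alone, a replicate block, and each array left out in turn. The fit was tested on simulated data. The promoter table (GRCh38.p14) served for sequences only, with the first promoter listed for the 5 members that have several.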

Additional observations from a re-analysis of the deposited data

Results flagged for a closer look

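Calls between the times, and of the interaction of the drugs, are each a test of the difference itself in limma, and are given beside the share of all genes called. Between 12 h and 24 h of cisplatin, 29 members were higher (59.2%, against 7.21% of all genes) and 1 lower (2.04%, against 3.42%), from KIF15 (1.78 on the log2 scale) to UBE2S (−0.67). With both drugs, 20 were higher (40.8%, against 5.67%) and 2 lower (4.08%, against 8.07%), from KIF20B (1.27) to UBE2S (−1.32). At 12 h the interaction was called positive for 12 members (24.5%, against 3.43%) and negative for 4 (8.16%, against 6.87%), from HMMR (1.58) to UBE2S (−1.72). At 24 h it was called positive for 3 (6.12%, against 5.08%) and negative for 8 (16.3%, against 11.4%), shares near those of all genes, from HMMR (1.40) to UBE2S (−1.85). HMMR and UBE2S stood at the ends of the interaction at both times, which used the same control arrays. The UBE2S values throughout are those of a cluster that may lie at another locus, which was not checked. No group had enough arrays for a test of single outlying arrays.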

How the results depend on the processing

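Of 176 member calls in the 15 comparisons, 132 were kept in every alternative, 44 were lost in at least 1 (39 when 1 array was left out) and 0 changed sign. Of the 78 calls against Control, 64 were kept throughout. The counts of members lower at 12 h of cisplatin alone or with TM, and of members higher at 24 h than at 12 h stayed within 1.5 times their value in every alternative. With no fold minimum, the members higher numbered 8 (Cis 12 h) and 15 (Cis 24 h), 7 at 12 h and 10 at 24 h of Cis/TM, 7 in TM 24 h, 2 in Cis/TM 12 h against TM 12 h, 10 in Cis/TM 24 h against TM 24 h and 9 in the interaction at 24 h, and those lower numbered 4 (Cis 24 h), 6 (Cis/TM 24 h), 7 (TM 12 h), 8 (TM 24 h), 2 in Cis/TM 24 h against Cis 24 h, 20 in Cis/TM 12 h against TM 12 h, 2 in Cis 24 h against Cis 12 h and 6 in Cis/TM 24 h against Cis/TM 12 h. With an unadjusted p, 1 member was higher in Cis/TM 12 h than in Cis 12 h. Median centring gave 2 lower in Cis 24 h, 5 higher in Cis/TM 24 h against TM 24 h, 1 lower in Cis/TM 24 h against Cis/TM 12 h, 2 lower in the interaction at 12 h, and 7 higher and 4 lower in that at 24 h. Quantile normalization gave 3 lower in Cis 24 h, 2 higher in TM 24 h, 1 lower in Cis/TM 24 h against Cis/TM 12 h, 2 lower in the interaction at 12 h, and 6 higher and 4 lower in that at 24 h. Cyclic loess gave 5 higher and 3 lower in Cis 24 h, 2 higher in TM 24 h, 1 lower in Cis/TM 24 h against Cis/TM 12 h, and 8 higher and 4 lower in the interaction at 24 h. A fit to the compared groups alone gave 1 lower in Cis/TM 24 h, and 6 higher and 2 lower in the interaction at 12 h. Without both Cis 12 h A and TM 24 h A, a choice made after seeing the data, 6 were higher in the interaction at 12 h. The cause of these shifts was not tested.

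With each array left out in turn, the members higher ran from 2 to 4 in Cis 12 h, 2 to 5 in Cis/TM 12 h, 2 to 5 in Cis/TM 24 h against TM 24 h, 5 to 14 in the interaction at 12 h and 3 to 6 in that at 24 h. Those lower ran from 0 to 2 (Cis 24 h), 0 to 3 (Cis/TM 24 h) and 2 to 5 (TM 24 h), 0 to 1 in Cis/TM 24 h against Cis 24 h, 1 to 2 in Cis/TM 24 h against TM 24 h, 0 to 1 in Cis 24 h against Cis 12 h, 2 to 4 in Cis/TM 24 h against Cis/TM 12 h, and 2 to 5 in the interaction at 12 h. No label ties the replicate letters to a shared culture. The residuals of 57 pairs of same-letter arrays correlated with a median r of 0.01 (−0.42 to 0.61), and 6 of 20 arrays were best matched by their own letter. With so few arrays per group, these values cannot exclude a link between some arrays of the same letter. A replicate block changed 2 calls, those of CCNB2 (0.55) and BUB1 (0.59) in the interaction at 12 h. With 2 or 3 arrays per group and no background measure, small differences and genes near background are not resolved. Running array numbers in the source names go in blocks by group, so processing order and group cannot be told apart.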
